A study of Homo sapiens with 16 samples.

Results

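The genes described here are 10 immediate early genes: EGR1, EGR2, EGR3, FOS, FOSB, FOSL2, JUN, JUNB, JUND and IER2. They were chosen by symbol, as the rows with these names among the 58051 Ensembl gene identifiers of the deposited table, 28714 of them detected in some library. RNA was sequenced from P493-6, human B cells immortalised by Epstein-Barr virus, where doxycycline represses a MYC transgene and estrogen activates the viral transcription factor EBNA2. Cells of the high MYC groups had plain DMEM with serum. Those of the medium MYC groups were given 0.1 µg/mL doxycycline together with 1 µM β-estradiol, starting 24 h ahead of the treatment. IMP1088, which inhibits the N-myristoyltransferases NMT1 and NMT2, was then added at 100 nM, and the controls of each MYC level had DMSO. Treatment lasted 24 h, and the 4 groups (high MYC with DMSO, high MYC with IMP1088, medium MYC with DMSO, medium MYC with IMP1088) had 4 libraries each. All libraries come from this line, and the labels do not say whether replicates were separate cultures, so the p-values below measure the spread between these libraries, which may be technical. MYC level, doxycycline and estradiol with its effect on EBNA2 were set together and cannot be told apart in this design.

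Immediate early genes are transcribed within minutes of a stimulus, without new protein synthesis, and their messages are short-lived. EGR1, EGR2 and EGR3 encode zinc finger transcription factors that bind GC-rich sites and that, in B cells, follow signalling through the antigen receptor and the ERK kinases. AP-1 is a dimer of basic leucine zipper proteins: JUN, JUNB and JUND pair among themselves or with FOS, FOSB and FOSL2, whereas FOS proteins need a JUN partner. Many of these promoters carry a CArG box, the element bound by serum response factor (SRF), which with its ternary complex partners ELK1, ELK3 and ELK4 responds to ERK. IER2 is an immediate early gene outside both families that encodes a small nuclear protein.

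RefSeq promoter windows of GRCh38.p14 ran from 250 bases before a transcription start to 50 bases after it. They were searched for 9 of the 10 genes (11 windows, since EGR2 has several starts). No window of EGR3 was searched, so nothing is said here of its promoter. The upstream part is printed for the genes on which the results below turn: the 2 EGR promoters with a CArG box, JUNB and IER2, which were higher with IMP1088 at medium MYC, and JUND, which differed least between MYC levels among the JUN genes. The stretches hold no annotated exon of their gene and are written 5′ to 3′ on the strand of the gene. Capitals mark a match to a motif of the search described after them. They are chr5:138465229-138465478 on the plus strand for EGR1, chr10:62816367-62816616 on the minus strand for EGR2, chr19:12791236-12791485 on the plus strand for JUNB, chr19:18281623-18281872 on the minus strand for JUND and chr19:13150161-13150410 on the plus strand for IER2. The EGR2 stretch precedes the start at 62816366 and lies in an intron of EGR2 transcripts that begin further upstream.
EGR1: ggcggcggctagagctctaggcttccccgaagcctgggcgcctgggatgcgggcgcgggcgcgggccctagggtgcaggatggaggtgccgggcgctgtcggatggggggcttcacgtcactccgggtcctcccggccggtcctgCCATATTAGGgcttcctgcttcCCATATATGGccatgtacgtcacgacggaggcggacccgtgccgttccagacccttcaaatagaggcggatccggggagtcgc
EGR2: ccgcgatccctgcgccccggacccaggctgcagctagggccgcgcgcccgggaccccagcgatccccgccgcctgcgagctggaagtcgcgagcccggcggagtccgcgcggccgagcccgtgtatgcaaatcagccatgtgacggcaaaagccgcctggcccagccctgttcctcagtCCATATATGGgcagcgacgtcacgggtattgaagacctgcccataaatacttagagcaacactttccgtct
JUNB: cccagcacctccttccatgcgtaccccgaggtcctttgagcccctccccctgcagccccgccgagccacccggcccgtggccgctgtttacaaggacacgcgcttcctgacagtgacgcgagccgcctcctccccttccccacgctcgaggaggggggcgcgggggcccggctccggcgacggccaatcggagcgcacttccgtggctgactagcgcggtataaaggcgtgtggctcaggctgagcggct
JUND: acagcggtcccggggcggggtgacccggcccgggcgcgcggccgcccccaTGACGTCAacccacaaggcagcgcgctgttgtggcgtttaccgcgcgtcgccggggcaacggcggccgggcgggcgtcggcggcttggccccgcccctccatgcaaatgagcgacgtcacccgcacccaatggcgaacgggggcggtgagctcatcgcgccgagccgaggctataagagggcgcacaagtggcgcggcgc
IER2: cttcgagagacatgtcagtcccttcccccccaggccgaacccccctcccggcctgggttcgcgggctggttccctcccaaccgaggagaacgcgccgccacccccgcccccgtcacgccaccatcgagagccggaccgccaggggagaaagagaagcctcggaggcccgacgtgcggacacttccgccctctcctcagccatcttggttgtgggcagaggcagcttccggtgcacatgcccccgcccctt

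In GENCODE 29 (GRCh38) EGR1 (ENSG00000120738) lies at chr5:138465490-138469315 on the plus strand and EGR2 (ENSG00000122877) at chr10:62811996-62919900 on the minus strand. JUN (ENSG00000177606) lies at chr1:58780788-58784327 on the minus strand, FOS (ENSG00000170345) at chr14:75278774-75282230 on the plus strand and FOSL2 (ENSG00000075426) at chr2:28392448-28417312 on the plus strand. The remaining AP-1 genes and IER2 share chromosome 19. There JUNB (ENSG00000171223) is at chr19:12791496-12793315, IER2 (ENSG00000160888) at chr19:13150415-13154908 and FOSB (ENSG00000125740) at chr19:45467995-45475179, all on the plus strand, and JUND (ENSG00000130522) is at chr19:18279760-18281622 on the minus strand. EGR3 is ENSG00000179388.

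Both strands were searched for 6 motifs: the CArG box, TGACTCA (the classical AP-1 site), TGACGTCA (the cyclic AMP response element, also bound by ATF and JUN dimers), GCGGGGGCG (bound by EGR proteins), GTGGGAA (bound by RBPJ, the partner of EBNA2) and CACGTG (the E box bound by MYC). The letters of no motif contain those of another. EGR1 had 2 CArG boxes, CCATATTAGG from -105 to -96 and CCATATATGG from -83 to -74, counted from the start site. EGR2 had CCATATATGG from -71 to -62 before this start, and CACGTG from -30 to -25 before another of its starts. JUND had TGACGTCA from -200 to -193, and FOSL2 had TGACTCA from 4 to 10 bases after its start. Over all 34943 windows of the same length, 1.3% held a CArG box, 1.84% TGACGTCA, 4.96% TGACTCA, 5.06% GCGGGGGCG, 6.24% GTGGGAA and 7.23% CACGTG. The windows of FOS, FOSB, JUN, JUNB and IER2 held none of the 6, which says only that these letters are not within them. A match is a description of the letters, not of binding.

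Recovered reads per library ran from 8755296 to 13858534, with ranges that overlapped between all 4 groups. Mitochondrial genes took 4.22% to 4.76% of reads in high MYC controls and 3.17% to 3.79% in medium MYC controls, without overlap, and 4.52% to 4.69% and 3.38% to 4.24% with IMP1088. The part of this shift in the differences between MYC levels was not tested. MYC itself stood at 31650 ± 2130 normalized counts (SD, n = 4) in high MYC controls and 959 ± 48.7 in medium MYC controls, and at 47540 ± 505 and 1382 ± 51.2 with IMP1088. The B cell markers CD79A, CD79B, MS4A1, PAX5, CD74 and CD22 were abundant in every library, from 1278 normalized counts for CD22 to 26170.0 for CD74. Of 17 markers of other cell types, summed levels per library did not pass 221.4 for T cell, 83.4 for monocyte, 112 for epithelial, 221.4 for fibroblast and 11.5 for erythroid genes. The T cell genes, at 40.5 to 84.4 at high and 147 to 221.4 at medium MYC, and the fibroblast genes, at 4.44 to 19.4 and 156 to 221.4, were higher at medium MYC, mainly through TRAC and COL1A1. With IMP1088 at medium MYC the monocyte genes were at 79.7 to 83.4 against 51.7 to 62.6 with DMSO, and the epithelial genes at 84.6 to 112 against 60.5 to 78.8. CD22 was at 3878 to 3973 with IMP1088 against 4803 to 5043 with DMSO at medium MYC, and at 1278 to 1398 against 1966 to 2081 at high MYC. Of the epithelial genes, CDH1 was at 46.8 to 64.8 in medium MYC controls against 0 to 0.753 in high MYC controls. EPCAM went the other way, at 9.39 to 21.3 against 54.2 to 70.75. CD3D, DCN, KRT18 and HBB had at most 3 reads in every library. The part of these signals in the results below was not tested. In RNA from whole cultures, fewer cells with a message and less message per cell cannot be told apart.

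Per kilobase of exon (GENCODE 29), JUNB was the most abundant of the 10 messages in every group, at 210 ± 15.8 normalized counts per kb in high MYC controls and 752 ± 77.5 in medium MYC controls. At high MYC with DMSO it was followed by JUND (144 per kb), IER2 (131 per kb) and JUN (27.2 per kb). The ranges of JUND and IER2 overlapped, and those of the other neighbours among these did not. EGR1, FOSB, FOS, EGR3 and EGR2 then lay between 4.07 and 0.809 per kb, each overlapping its neighbour in the order, and FOSL2 was last at 0.209. At medium MYC with DMSO the order was JUNB, IER2 (201 per kb), JUND (165 per kb), JUN (115 per kb), EGR1 (33.8 per kb), EGR2 (19.8 per kb), EGR3 (7.73 per kb), FOS (6.36 per kb), FOSB (2.69 per kb) and FOSL2 (0.349 per kb). There EGR3 and FOS were the only neighbours whose ranges overlapped. EGR2 and EGR3 thus had mean levels per kb below those of FOSB and FOS at high MYC and above them at medium MYC.

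**Figure D1:**
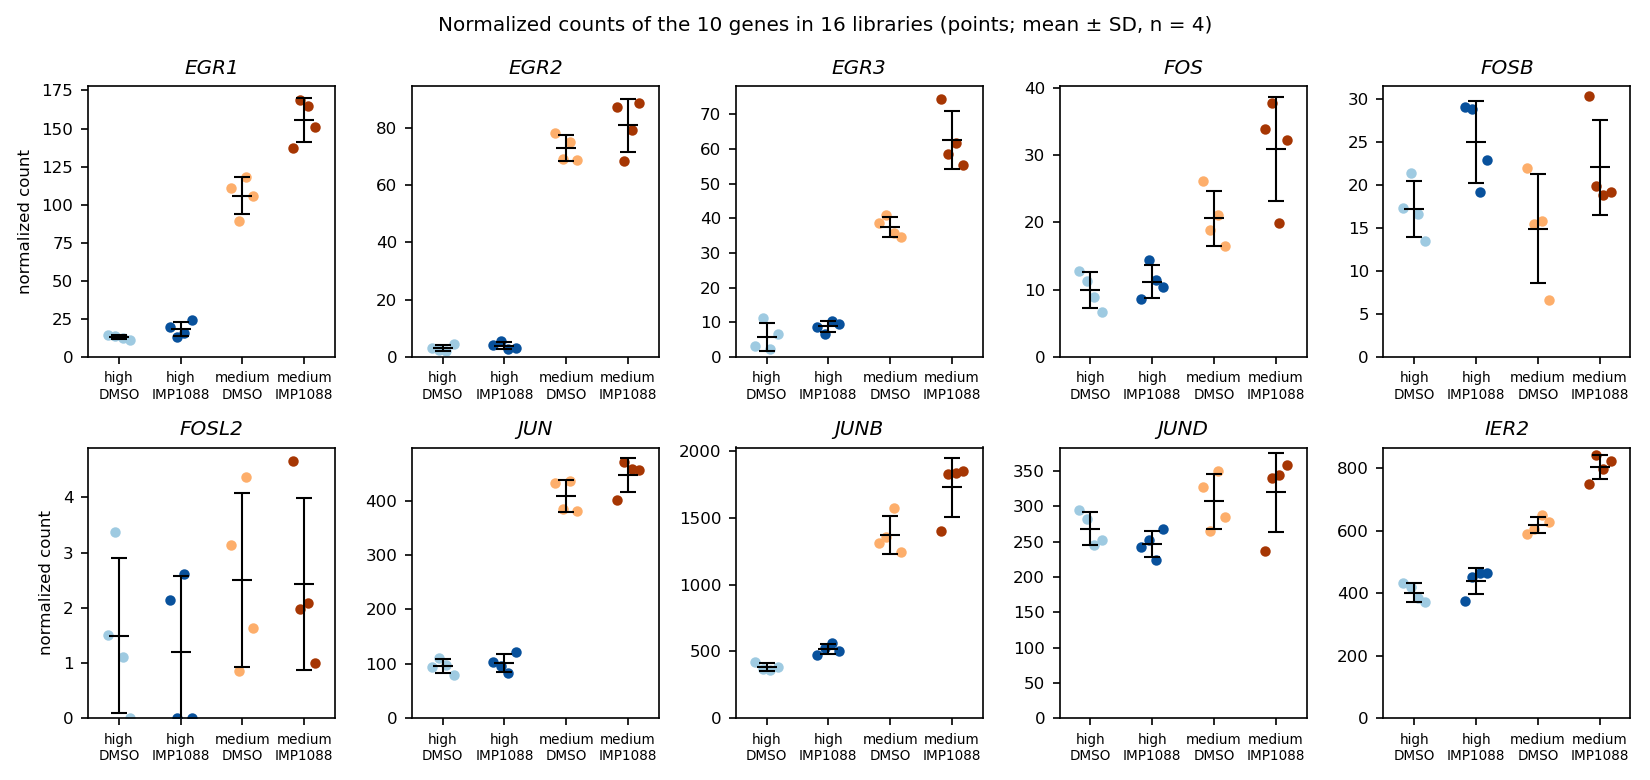
Normalized counts (vertical axis, linear, from 0, with a separate scale in each panel) of the 10 genes in the 16 libraries, by group on the horizontal axis; points are libraries and bars are the mean ± SD of 4. The medium MYC libraries of EGR1, EGR2, EGR3, FOS, JUN, JUNB and IER2 all lie above the high MYC libraries of the same treatment, whereas those of FOSB, FOSL2 and JUND overlap with them.

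In the comparison of MYC levels among DMSO controls, 7 of the 9 genes tested were higher at medium MYC and none was lower. They were EGR1, EGR2, EGR3, FOS, JUN, JUNB and IER2, and all 7 had groups without overlap. Over all 13765 genes tested, 38.9% were called higher, 37.3% lower and 76.2% in either direction, and 69.2% had groups without overlap, so a call in this contrast is common. The median log2 change of the 9 genes was 1.84, against 0.0174 over all genes. A gene was called at a limma adjusted p under 0.05, and log2 changes are on log2(value + 1), which understates the change of low genes. EGR2 and EGR3 passed the filter on low values (a mean of 10 over the 16 libraries) only through their high values at medium MYC. FOS averaged 9.89 in the high MYC controls, and FOSL2 did not pass the filter. Of the 6 that averaged 10 or more in each of the 4 groups, 4 were higher at medium MYC (EGR1, JUN, JUNB and IER2), and their median log2 change was 1.23 over all 6.

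EGR2 and EGR1 showed the widest differences between MYC levels on this scale and with pseudocounts of 0.1 and 10. EGR2, a regulator of lymphocyte activation and tolerance, was at 3.01, 2.25, 2.21 and 4.47 normalized counts in the high MYC controls and at 78.2, 69.4, 75.3 and 68.9 in the medium MYC controls. The high MYC values rest on 2 to 4 reads per library, while every medium MYC control had at least 75. The ratio of means was 24.4, and the log2 change was 4.25 ± 0.23 (SE; limma adjusted p = 1.737e-13). EGR1, the family member most often used as a readout of ERK signalling, was at 14.3, 13.5, 12.1 and 11.2 in high MYC controls and at 111, 89.0, 118 and 106 in medium MYC controls. The groups lay far apart, with a ratio of means of 8.29 and a log2 change of 2.95 ± 0.16 (limma adjusted p = 3.092e-13). EGR3, which shares targets with EGR2, was at 3.01, 11.2, 2.21 and 6.71 against 38.6, 41.1, 35.9 and 34.5. Its high MYC controls scattered widely on 2 to 10 reads, but all stayed below the medium MYC controls (log2 change 2.70 ± 0.30, limma adjusted p = 4.888e-08). EGR2 and EGR3 entered this test only through their values at medium MYC, so their p-values are given as a description. With a pseudocount of 10 the log2 change was 2.68 for EGR2 and 1.62 for EGR3, the latter below those of JUN (1.98) and JUNB (1.81). The exons of EGR3 overlap 164 bases of a transcript on the opposite strand, AC055854.1, and use of strand in the counting is not given in the sources used here.

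Among the JUN genes, JUN and JUNB were several times higher at medium MYC, and JUND was not called. JUN, the principal activating partner in AP-1, was at 94.9, 111, 98.2 and 80.5 in high MYC controls and at 432, 384, 436 and 382 in medium MYC controls. Every medium MYC library was above every high MYC library, with a ratio of means of 4.25 and a log2 change of 2.08 ± 0.10 (limma adjusted p = 6.014e-14). JUNB, which activates transcription less strongly than JUN, was at 422.5, 365, 359 and 382 against 1310.0, 1354, 1569 and 1242. The libraries again did not overlap, with a ratio of means of 3.58 and a log2 change of 1.84 ± 0.08 (limma adjusted p = 8.842e-15). JUNB shares 259 bases of exon with HOOK2 on the opposite strand. JUND, the JUN gene with the steadiest expression across growth states, was at 294.5, 282, 245 and 253 against 327.5, 265, 350.1 and 285. These ranges overlapped, and the log2 change was 0.19 (95% interval -0.04 to 0.42, limma adjusted p = 0.1272). With a correction for the GC content of genes in each library it was 0.42 (limma adjusted p = 4.828e-05), and without replicate 1 of medium MYC with IMP1088, which enters only the shared spread, it was 0.19 (limma adjusted p = 0.04643).

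The FOS genes were all low in this line. FOS, the partner of JUN in the classical AP-1 dimer, was at 12.8, 11.2, 8.83 and 6.71 in high MYC controls and at 26.1, 18.8, 21.0 and 16.4 in medium MYC controls. The lowest medium MYC library was above the highest high MYC library, with a ratio of means of 2.08 and a log2 change of 1.00 ± 0.25 (limma adjusted p = 0.001107), or 0.62 with a pseudocount of 10 and 0.61 after quantile normalization, both called. FOSB, which has a truncated splice form known from long-term stimulation of neurons, was at 17.3, 21.3, 16.6 and 13.4 against 21.9, 15.4, 15.8 and 6.57. The groups overlapped and the log2 change was -0.28 (95% interval -0.86 to 0.30, limma adjusted p = 0.368). This value rests on replicate 4 of the medium MYC controls, without which it was 0.04. After quantile normalization it was -0.82 (limma adjusted p = 0.04476). FOSL2, a FOS protein without the strong activation domain of FOS, had at most 3 reads in each high MYC library and at most 5 in any library. It was at 1.51, 3.37, 1.10 and 0 in high MYC controls and at 3.13, 0.856, 4.38 and 1.64 in medium MYC controls. An exact two-sided permutation test of the difference in means gave p = 0.4 (adjusted p = 0.8 over 4 comparisons, smallest possible p = 0.0286) and did not pass. With 4 libraries a group and a few reads per library, this says little about FOSL2 either way.

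IER2 was at 434, 419, 383 and 371 normalized counts in high MYC controls and at 588, 605, 649 and 626 in medium MYC controls. The groups did not overlap, and the difference was smaller than that of the other called genes, with a ratio of means of 1.54 and a log2 change of 0.62 ± 0.06 (limma adjusted p = 1.635e-08). Its exons overlap an antisense transcript, AC011446.2, over 946 bases.

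Under IMP1088 the order of the differences between MYC levels was much the same, with 8 of the 9 genes tested higher at medium MYC and 7 without overlap. Here too EGR2 and EGR3 were tested only through their high values at medium MYC. Of the 6 genes whose mean reached the filter in every group, 5 were higher at medium MYC (EGR1, JUN, JUNB, JUND and IER2). The median log2 change of these 6 was 1.30. Over all genes tested, 39.7% were called higher, 37.8% lower and 77.5% either way, and 72.6% had groups without overlap. The log2 changes were 4.10 for EGR2, 3.07 for EGR1, 2.71 for EGR3, 2.14 for JUN, 1.73 for JUNB, 1.37 for FOS and 0.87 for IER2. JUND was the additional call, at 247 ± 18.3 at high and 320 ± 56.0 at medium MYC with IMP1088 (log2 change 0.36 ± 0.11, limma adjusted p = 0.005946), and its change was 0.63 with the GC correction. Its ranges overlapped, because replicate 1 of medium MYC with IMP1088 stood at 236.5. FOSB was at 25.0 ± 4.80 and 22.0 ± 5.53 and was not called (log2 change -0.18, 95% interval -0.76 to 0.40).

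In the limma fit the differences called with the NMT inhibitor were increases of less than 1.5-fold in the ratio of means. At high MYC 2 of the 9 genes tested were higher with IMP1088, JUNB and EGR1, and none was lower. Over all genes, 10.5% were called higher, 16.3% lower and 26.8% in either direction, and 26.7% had groups without overlap, against 1 of the 9 genes here (JUNB). Of all the calls 39.1% were increases, and after quantile normalization 49.4%. At medium MYC 3 of the 9 were higher, IER2, JUNB and EGR1 (5 with edgeR, which added EGR3 and FOS), and none was lower, where 11.7% of all genes were called higher, 14.6% lower and 26.3% either way. Of all those calls 44.4% were increases, and with equal library totals 54.2%. The shares of these genes called in either direction were thus near those of all genes at both levels. There 3 of the 9 had groups without overlap (EGR1, EGR3 and IER2), against 27.9% of all genes. The median log2 change of the 9 genes was 0.29 at high and 0.38 at medium MYC, against -0.02 and -0.01 over all genes. The comparisons at high and at medium MYC share no library, but each shares its DMSO controls with the comparison between MYC levels.

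JUNB was the gene called at both MYC levels under every alternative tried. At high MYC it was at 422.5, 365, 359 and 382 with DMSO and at 471, 526, 561 and 506 with IMP1088. All 4 treated libraries were above all 4 controls, with a ratio of means of 1.35 and a log2 change of 0.43 ± 0.08 (limma adjusted p = 0.0004429). At medium MYC it was at 1310.0, 1354, 1569 and 1242 with DMSO and at 1398, 1824, 1834 and 1846 with IMP1088. Replicate 1 of the treated libraries fell within the range of the controls and the other 3 lay above it (log2 change 0.33 ± 0.08, limma adjusted p = 0.004618). Over the 29 alternatives the log2 change ran from 0.39 to 0.52 at high MYC and from 0.28 to 0.44 at medium MYC, with limma, edgeR or DESeq2 adjusted p of at most 0.02339. The difference between these responses was 0.10 (high minus medium, 95% interval -0.14 to 0.35).

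EGR1 passed the test at both levels, but narrowly at high MYC. Its high MYC values were 14.3, 13.5, 12.1 and 11.2 with DMSO and 19.4, 13.3, 15.7 and 23.9 with IMP1088, on 10 to 23 reads per library. Of the treated libraries, 3 were above all controls and replicate 2 was not (ratio of means 1.41, log2 change 0.44 ± 0.16, limma adjusted p = 0.04807). The call was lost with a pseudocount of 10 (log2 change 0.29, limma adjusted p = 0.08595), with edgeR (adjusted p = 0.1601) and DESeq2 (adjusted p = 0.2243) on the recovered reads, and in 13 of the 16 limma fits that each left out 1 library. These 13 left out replicate 2, 3 or 4 of the high MYC controls, replicate 1 or 4 of high MYC with IMP1088, or any medium MYC library, and the highest adjusted p among them was 0.1757. At medium MYC, EGR1 was at 111, 89.0, 118 and 106 with DMSO and at 137.5, 169, 165 and 151 with IMP1088. All treated libraries were above all controls (ratio of means 1.47, log2 change 0.55 ± 0.16, limma adjusted p = 0.014). Without replicate 2 of the medium MYC controls the limma adjusted p was 0.05708.

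EGR2 and EGR3 were not called. At medium MYC, EGR3 was at 38.6, 41.1, 35.9 and 34.5 with DMSO and at 74.6, 58.6, 61.6 and 55.5 with IMP1088, so that all treated libraries lay above all controls. The log2 change was 0.72 ± 0.30 with a limma adjusted p of 0.08868, in a fit whose spread for EGR3 includes the scattered high MYC controls. The adjusted p was 0.001231 when limma was fitted to the medium MYC libraries alone, 0.005063 with edgeR and 0.003785 with DESeq2. At high MYC, EGR3 was at 8.77 ± 1.61 with IMP1088 and 5.79 ± 4.12 with DMSO, and the groups overlapped (limma adjusted p = 0.08905). Without replicate 2 of the high MYC controls, the highest of them, its limma adjusted p was 0.0051. EGR2 had 81.0 ± 9.28 with IMP1088 and 72.9 ± 4.56 with DMSO at medium MYC, a log2 change of 0.14 with a 95% interval from -0.33 to 0.62.

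IER2 differed with the inhibitor at medium MYC. Its values were 588, 605, 649 and 626 with DMSO and 750.3, 840.4, 798 and 823 with IMP1088. The groups were well apart, with a ratio of means of 1.3 and a log2 change of 0.38 ± 0.06 (limma adjusted p = 0.0001266). At high MYC its values were 434, 419, 383 and 371 with DMSO and 376, 450.3, 466 and 464 with IMP1088. Here 3 treated libraries were above all controls, replicate 1 lay within the range of the controls, and the gene was not called (log2 change 0.13, 95% interval -0.01 to 0.26, limma adjusted p = 0.1653). With the GC correction it was 0.21 (limma adjusted p = 0.002738), and without replicate 1 of high MYC with IMP1088 it was 0.20 (limma adjusted p = 0.01611).

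The remaining genes were not called with the inhibitor at either level. FOS was at 33.8, 37.8, 19.8 and 32.3 with IMP1088 against 26.1, 18.8, 21.0 and 16.4 with DMSO at medium MYC. Of the treated libraries, 3 were above all controls and replicate 3 was within them (log2 change 0.55, 95% interval 0.02 to 1.07, limma adjusted p = 0.1188), while edgeR gave an adjusted p of 0.04499. Without that replicate the limma adjusted p was 0.03847. FOSB had 25.0 ± 4.80 against 17.2 ± 3.26 at high MYC and 22.0 ± 5.53 against 14.9 ± 6.31 at medium MYC (log2 changes 0.52 and 0.61, limma adjusted p = 0.1886 and 0.1157). Without replicate 1 of the medium MYC controls FOSB at medium MYC had a log2 change of 0.82 (limma adjusted p = 0.03885), and without replicate 4 of these controls one of 0.29 (limma adjusted p = 0.4245). JUN had 101.5 ± 16.4 against 96.2 ± 12.6 at high MYC and 446.5 ± 31.2 against 408 ± 29.4 at medium MYC. Its intervals, from -0.14 to 0.29 and from -0.09 to 0.35 in log2, leave room for changes of up to 0.35. JUND had 247 ± 18.3 against 268.5 ± 23.5 and 320 ± 56.0 against 307 ± 38.7 (log2 changes -0.12 and 0.05). FOSL2 had 1.19 ± 1.39 against 1.495 ± 1.40 and 2.44 ± 1.56 against 2.501 ± 1.57, and exact two-sided permutation tests gave an adjusted p of 1.0 for both.

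None of the 9 genes had a response to IMP1088 that differed between MYC levels at a limma adjusted p under 0.05, where 8.63% of all genes did (3.31% with a higher and 5.33% with a lower response at high MYC). At an unadjusted p under 0.05 there was 1, IER2, where 21.2% of all genes were, and edgeR and DESeq2 called none. Its response was smaller at high MYC by 0.25 on the log2 scale (95% interval of high minus medium -0.44 to -0.06), with a limma adjusted p of 0.09833. With the GC correction the difference was -0.26 (limma adjusted p = 0.01877).

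**Figure D2:**
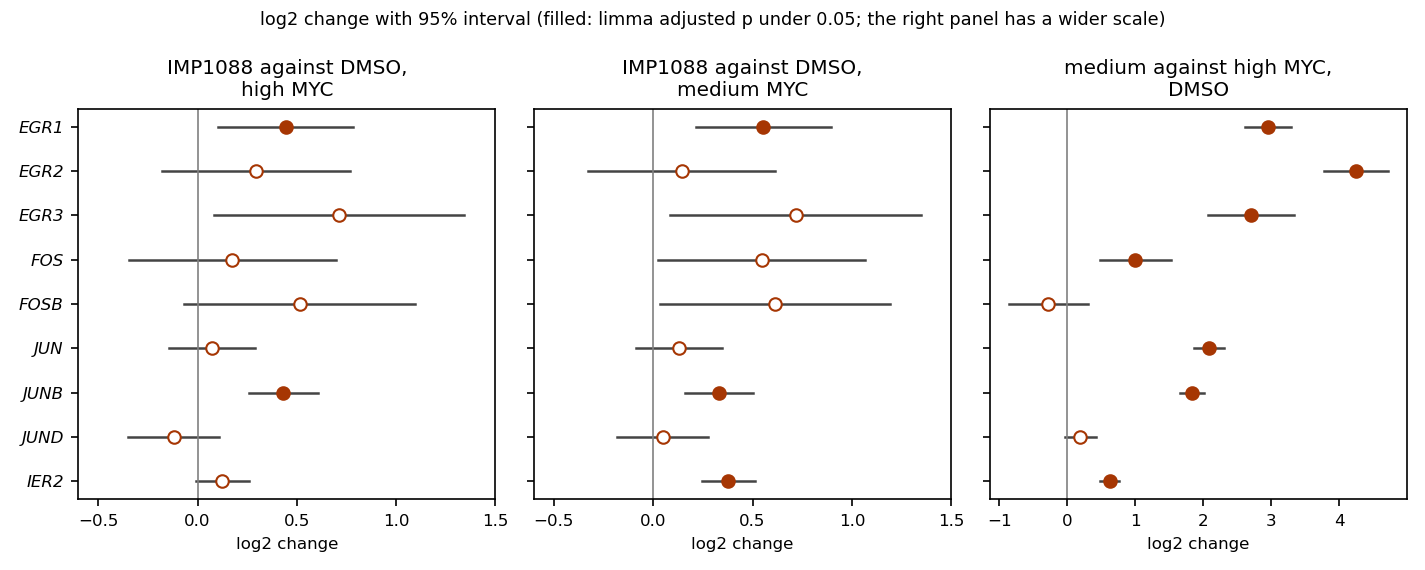
Log2 change on log2(value + 1) (horizontal axis) of the 9 genes tested, for IMP1088 against DMSO at high and at medium MYC and for medium against high MYC among DMSO controls (right panel, wider scale); points are limma estimates from 4 libraries per group, lines are 95% intervals and filled points passed an adjusted p under 0.05. The inhibitor's called changes run from 0.33 (JUNB at medium MYC) to 0.55 (EGR1 at medium MYC), and those between MYC levels from 0.62 (IER2) to 4.25 (EGR2). EGR2 and EGR3 passed the filter on low values only through medium MYC.

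The values of JUNB, JUND and IER2, the most GC-rich of the 10 messages (64.9%, 69.7% and 61.7% GC), stood low or high together in the libraries with the lowest and the highest GC slope. This slope is how much the log2 values of a library, relative to the mean over all libraries, rise per 10 percentage points of gene GC content. It was below 0 in all 8 libraries with IMP1088 (-0.06 to -0.01 at each MYC level) and above 0 in the 4 medium MYC controls (0.00354 to 0.12), so that it differed with the inhibitor at medium MYC without overlap. In the high MYC controls it ran from -0.04 to 0.09. Replicate 1 of medium MYC with IMP1088 had the lowest slope (-0.06) and stood below its group mean by -0.41 for JUND, -0.29 for JUNB and -0.10 for IER2 on the log2 scale. Replicate 3 of the medium MYC controls had the highest slope (0.12) and stood above its group mean by 0.20 for JUND, 0.20 for JUNB and 0.07 for IER2. EGR2, with 50.9% GC, stood 0.12 and 0.05 above its group mean in the same libraries. Of the other less GC-rich genes, EGR1 (-0.17 and 0.16) and JUN (-0.15 and 0.10) moved in the directions of JUNB. FOS (0.16 and 0.05) and FOSB (0.47 and 0.18) stood above their group means in both libraries. EGR3 was at 0.26 and -0.06. With the GC correction the inhibitor's log2 change of JUNB was 0.52 at high and 0.44 at medium MYC, and that of IER2 at medium MYC was 0.47, each larger than without it. JUND moved from -0.12 to -0.04 at high MYC and from 0.05 to 0.18 at medium MYC and was called at neither (limma adjusted p = 0.7869 and 0.1051). The part of GC content in the low values of that library was not tested otherwise.

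**Figure D3:**
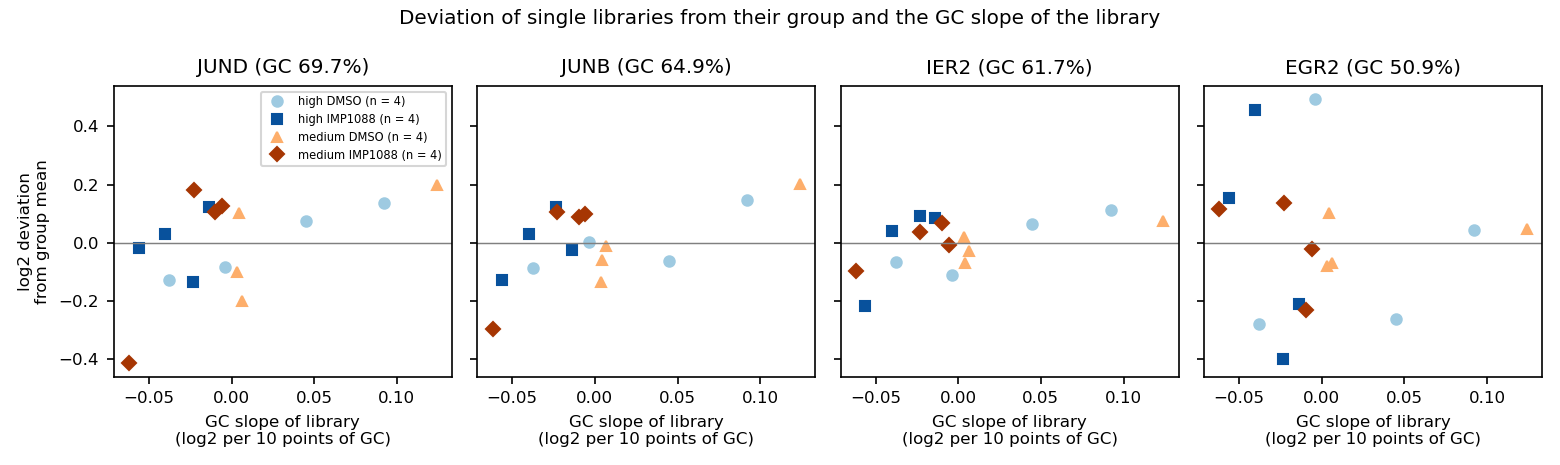
Log2 deviation of each library from its group mean (vertical axis) against the GC slope of the library (horizontal axis, log2 per 10 percentage points of gene GC content) for JUND, JUNB, IER2 and EGR2; each point is 1 of 16 libraries, with 4 per group. The library with the lowest slope, replicate 1 of medium MYC with IMP1088, lies lowest for JUND (-0.41) and JUNB (-0.29) but above its group mean for EGR2 (0.12).

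Other genes of the pathway were taken from 7 lists, which hold some genes in common (ZFP36 is in 2 of them). The lists are described by counts and medians, and no list was tested as a whole. ID1, SIK1, MAFF, ELK3 and DUSP4 averaged under 10 in each high MYC group, and IER3 in the high MYC controls. They passed the filter only through their values at medium MYC, which bears on the counts between MYC levels. In DMSO controls 38.9% of all genes tested were called higher and 37.3% lower at medium MYC. Among 29 other immediate early genes tested, 22 were called higher and 4 lower for medium MYC in DMSO controls, with a median log2 change of 0.75. With IMP1088, 10 were higher and 2 lower at high MYC, and 11 higher and 4 lower at medium MYC, with medians of 0.16 and 0.19. GADD45B, a stress sensor that binds p38 and JNK pathway kinases, was at 264, 274, 228.5 and 240.3 with DMSO and 423, 377, 425 and 429 with IMP1088 at high MYC. At medium MYC it was at 760.4, 770, 887 and 799 with DMSO and 1198, 1247, 1164 and 1257 with IMP1088. The treated libraries were above all controls at both levels (log2 changes 0.72 and 0.60, limma adjusted p = 1.477e-08 and 1.604e-07). PPP1R15A, which encodes the GADD34 subunit that reverses the phosphorylation of eIF2α, was at 412 ± 33.4 with DMSO and 648 ± 24.4 with IMP1088 at medium MYC (log2 change 0.65, limma adjusted p = 1.399e-07). Its response was smaller at high MYC, where it was at 212, 209, 175.5 and 203 with DMSO and at 221.5, 238.5, 234 and 232 with IMP1088, and the difference between the responses passed the test (-0.44, limma adjusted p = 0.00368).

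Some immediate early genes fell with the inhibitor. ZFP36L1, an RNA-binding protein that promotes decay of AU-rich messages, fell by 0.46 at high and by 0.17 at medium MYC (limma adjusted p = 5.091e-09 and 0.001002). ID3, a dominant negative partner of E proteins, fell by 0.43 at medium MYC, from 905 ± 62.1 to 669 ± 34.6 (limma adjusted p = 4.981e-07). KLF10, a zinc finger repressor, rose by 0.48 at high MYC, from 396.5 ± 43.1 to 550.5 ± 29.3 (limma adjusted p = 6.502e-06). The largest difference between MYC levels among the 3 with the smallest p in this list was that of NFKBIZ, an atypical IκB protein. It was at 140 ± 14.7 in high and 2330.0 ± 80.3 in medium MYC controls (log2 change 4.06, limma adjusted p = 3.566e-23).

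Of 10 other basic leucine zipper genes of the AP-1 families, 7 were higher and 1 was lower at medium MYC in controls. Over all genes these shares were 38.9% and 37.3%. BATF, which pairs with JUN proteins and with IRF4 in lymphocytes, was at 28.5 ± 3.25 in high and 201 ± 18 in medium MYC controls (log2 change 2.78, limma adjusted p = 8.601e-15). ATF3, a stress-induced repressor, was at 33.8 ± 7.78 and 121 ± 6.41 (log2 change 1.83, limma adjusted p = 9.088e-11). MAFK, a small MAF protein without an activation domain, was the 1 that fell, from 519 ± 13.6 to 171 ± 10.2 (log2 change -1.59, limma adjusted p = 1.203e-16). With the inhibitor 2 were higher and 3 lower at high MYC, and 2 higher and 1 lower at medium MYC, with medians of -0.07 and 0.02. ATF3 was at 128, 115, 124 and 116.5 with DMSO and at 157, 197, 182 and 150.2 with IMP1088 at medium MYC, all treated libraries being above the controls (log2 change 0.49, limma adjusted p = 0.01122). At high MYC ATF3 was at 33.8 ± 7.78 and 29.2 ± 2.9, and the difference between the responses was -0.68 (limma adjusted p = 0.03449). ATF7, a relative of ATF2, fell by 0.24 at high and by 0.15 at medium MYC (limma adjusted p = 0.0001347 and 0.009107), and the call at medium MYC was lost with equal library totals (limma adjusted p = 0.05100). Of the EGR relatives and NAB corepressors 2 were tested, NAB1 and NAB2. NAB2, a corepressor that EGR1 induces and that binds EGR proteins, was higher at medium MYC in controls (189 ± 15.6 against 89.6 ± 4.2, limma adjusted p = 4.045e-09). With IMP1088 it fell by 0.45 at high MYC (limma adjusted p = 0.002121), and at medium MYC it was at 193 ± 21.0 with IMP1088, near its control level.

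Of the 17 SRF, ternary complex and CREB factor genes, 7 were lower with the inhibitor at high MYC and 4 at medium MYC, with medians of -0.09 and -0.08. None was higher at either level in this fit, while 1 was higher at medium MYC with equal library totals, quantile normalization, the GC correction or edgeR. SRF, which encodes the factor known to bind CArG boxes, was at 1651, 1527, 1707 and 1519 with DMSO and at 709.5, 717, 778 and 736 with IMP1088 at medium MYC. The treated libraries were far below the controls (log2 change -1.12 ± 0.06, limma adjusted p = 3.102e-12). At high MYC it was at 752, 748, 646 and 636 with DMSO and 554, 559, 606 and 607 with IMP1088. The groups were again without overlap but closer (log2 change -0.25, limma adjusted p = 0.001966), and the responses differed by 0.87 (limma adjusted p = 2.29e-07). MRTFA, a coactivator of SRF that responds to actin, fell by 0.48 and by 0.21 (limma adjusted p = 2.36e-06 and 0.009923). Between MYC levels in controls, 11 of the 17 were higher at medium MYC and 1 was lower, against 38.9% and 37.3% of all genes. SRF was higher by 1.21, MEF2C by 1.30 and CREM, a CREB relative, by 2.12.

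Of the 27 genes of the MAP kinase cascade, 14 were lower and none higher with the inhibitor at high MYC (median log2 change -0.11), though quantile normalization, the GC correction and edgeR each gave 1 higher. At medium MYC 2 were higher and 5 lower (median -0.03, and 0.00142 with equal library totals). MAP2K6, a kinase of p38, fell by 0.90 at high and by 0.93 at medium MYC (limma adjusted p = 0.0001205 and 7.248e-05). RPS6KA4, the kinase MSK2 downstream of ERK and p38, fell from 460.2 ± 29.3 to 283 ± 17.0 at medium MYC (log2 change -0.70, limma adjusted p = 3.616e-07). RASGRP1, an activator of RAS, fell by 0.52 at high MYC (limma adjusted p = 9.378e-06) and stood at 473 ± 15.4 with IMP1088 against 428 ± 26.5 at medium MYC, a difference in response of -0.66 (limma adjusted p = 0.0001146). Between MYC levels in controls, 16 were higher at medium MYC and 7 lower, where 38.9% of all genes were higher and 37.3% lower.

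Of the 7 ERK feedback genes tested, which encode inhibitors that ERK signalling itself induces, 4 were lower with the inhibitor at each MYC level, and 1 was higher at medium MYC (medians -0.29 and -0.26). SPRED2, a membrane-anchored inhibitor of RAF activation, was at 72.3, 76.4, 70.6 and 89.4 with DMSO and at 36.6, 24.4, 21.8 and 39.5 with IMP1088 at high MYC. At medium MYC it was at 345, 342.5, 361 and 347 and at 227, 229.5, 254 and 257. The treated libraries were below all controls at both levels (log2 changes -1.35 and -0.53, limma adjusted p = 2.566e-07 and 0.00696), and the responses differed by -0.82 (limma adjusted p = 0.0102). SPRY2, another inhibitor of receptor signalling to ERK, fell by 0.84 at high and by 0.46 at medium MYC (limma adjusted p = 0.000251 and 0.03049). Both were more abundant at medium MYC in controls, where 5 of the 7 were higher and 1 was lower. The 10 genes for turnover of FOS, JUN and EGR products had 1 increase and 2 decreases with IMP1088 at high MYC and 2 and 2 at medium MYC. Of these 10 genes, 3 were higher and 2 lower at medium MYC in controls. Over all genes, beside both lists, the shares in controls were 38.9% higher and 37.3% lower at medium MYC. FBXW7, a ubiquitin ligase subunit that recognises JUN, rose by 0.12 and 0.17 (limma adjusted p = 0.03195 and 0.003073), the first lost with DESeq2 (adjusted p = 0.06196). ZFP36, which destabilises FOS and other AU-rich messages, fell by 0.33 and by 0.30 (limma adjusted p = 0.002002 and 0.004632).

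**Figure D4:**
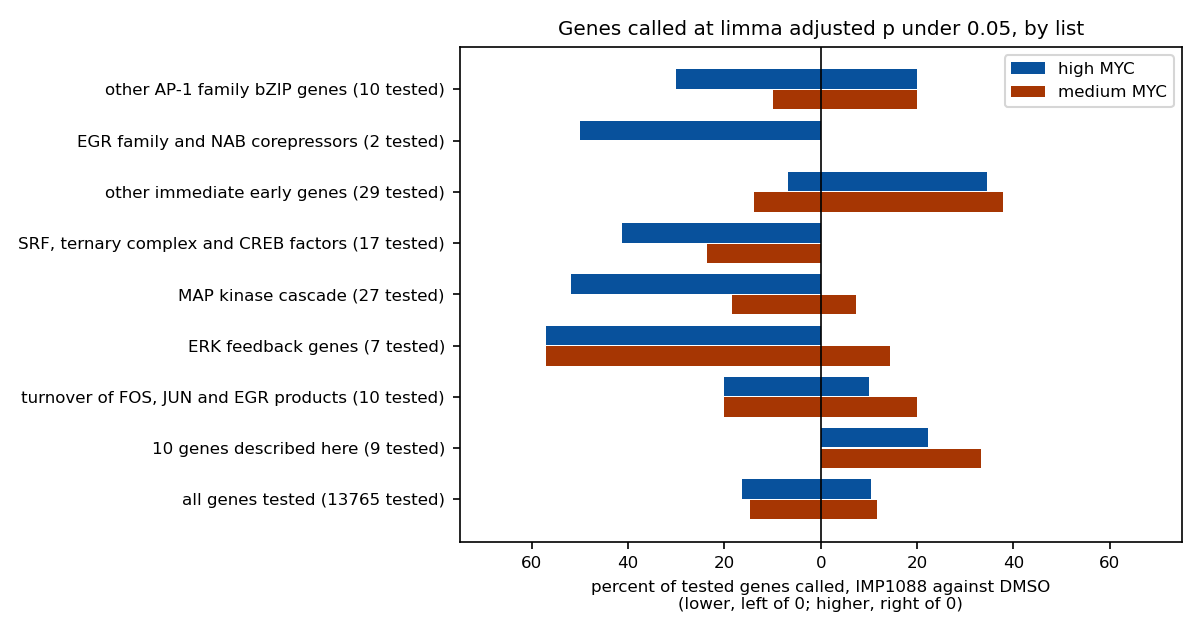
Share of the tested genes of each list called at a limma adjusted p under 0.05 with IMP1088 against DMSO (horizontal axis, percent; lower to the left of 0 and higher to the right), at high and at medium MYC. All genes tested had 10.5% higher and 16.3% lower at high MYC and 11.7% higher and 14.6% lower at medium MYC, and among the other immediate early genes 10 of 29 were higher at high MYC and 11 of 29 at medium MYC.

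**Figure D5:**
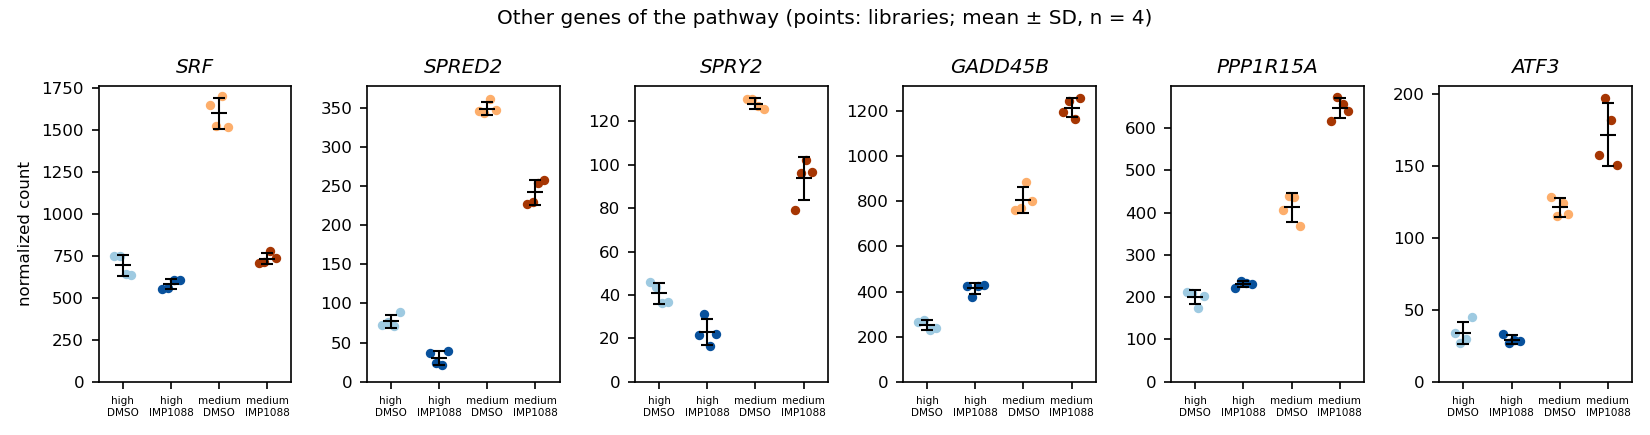
Normalized counts (vertical axis, linear, from 0, with a separate scale in each panel) of SRF, SPRED2, SPRY2, GADD45B, PPP1R15A and ATF3 in the 16 libraries, by group; points are libraries and bars are the mean ± SD of 4. SRF with IMP1088 at medium MYC (735 ± 30.7) lies far below its DMSO controls (1601 ± 92.8), while GADD45B lies above its controls at both MYC levels.

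The genes whose values followed those of 5 of the 10 messages most closely were found by Pearson's r over the 16 libraries on log2(value + 1), among 10898 genes with a mean of at least 50. The libraries share the 4 groups, so r mostly reflects the group means and is given as a description. EGR1 was followed most closely by IER5 (r = 0.993), IRF4 (r = 0.991) and CXCL10 (r = 0.99), and JUN by FCRL3 (r = 0.994), RAB29 (r = 0.994) and ANKRD33B (r = 0.993). For JUNB they were C6orf62 (r = 0.991), UBB (r = 0.991) and PI4K2A (r = 0.99), and for IER2 PPP1R15A (r = 0.981), H1-10 (r = 0.978) and UBB (r = 0.978). JUND had no gene as close, with ZFP41 (r = 0.901), ZNF865 (r = 0.876) and RNF10 (r = 0.862) nearest.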

How the data were processed

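RNA of 16 libraries (4 groups of 4) had been sequenced on an Illumina HiSeq, per the labels' protocols. The deposited values are a signal, normalized gene counts; the submitters' processing notes name STAR 2.5.2a, RSEM 1.2.31, DESeq2 1.16.1 and GRCh38, while the annotation and the use of strand are not given in the sources used here. In every library 100.0% of the deposited values were whole multiples of 1 step (tolerance 1e-06), so reads were recovered. Symbols were matched to 56948 of 58051 identifiers.

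Genes averaging 10 or more over the 16 libraries (13765) were fitted with limma 3.58.1 (R 4.3.3, mean trend, 4 group means) on log2(value + 1), two-sided, with Benjamini-Hochberg adjustment over all genes tested and calls at an adjusted p under 0.05. FOSL2, below that mean, had exact permutation tests. On the recovered reads edgeR 4.0.16 called 3703 genes at high and 3858 at medium MYC with IMP1088, and DESeq2 1.42.0 called 3165 and 3340. Other alternatives were pseudocounts, filters, scalings, a GC correction (lowess, span 0.3), a replicate block and leaving out each library. The fits were also run on simulated counts in which few genes changed, and only at high MYC. Many more genes were called in these data, so that run is no check of the calls given here.

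The 10 genes and the 7 lists were chosen with earlier results of these data known. The list genes given with values were among the 3 called genes with the smallest p of their list in some comparison. Not all genes of that rank are given, and DUSP7 and KSR1 are among those left out. Per-kb levels, GC content and overlaps are from GENCODE 29.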

Additional observations from a re-analysis of the deposited data

Results flagged for a closer look

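In 3 of 40 sets of 4 libraries (10 genes in 4 groups) a library stood apart from the other three by most of the range of its set. Chance alone gives this in about 1 set in 20. All of them were replicate 1 of medium MYC with IMP1088. FOSB was highest there, at 30.29 normalized counts, and its gap to the next library was 0.907 of the range. JUNB was lowest there, at 1398 (gap 0.95 of the range), and JUND was lowest there, at 236.5 (gap 0.85 of the range). Without this library the change of JUNB with IMP1088 at medium MYC was 0.43 on the log2 scale (limma adjusted p = 0.0001236), and that of JUND was 0.19 (limma adjusted p = 0.1489).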

How the results depend on the processing

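Of 1269 values of single genes under 29 alternatives, 1204 kept their direction and side of the threshold, 21 lost a call, 21 gained one and 23 changed sign, none of the last being called. The count of genes called with IMP1088 at high MYC (2) was 1 with a pseudocount of 10, no filter, a filter at a mean of 100, quantile normalization, the compared groups only, the replicate block, edgeR or DESeq2, and 1 to 2 when a library was left out, but 3 with the GC correction, with or without the block. At medium MYC (3) it was 5 with edgeR and 2 to 4 under the others. For MYC levels it was 3 in place of 7 among controls and 4 in place of 8 under IMP1088 with the filter at 100, which tests fewer of the genes. For the difference in response (0) it was 1 with the GC correction, with or without the replicate block.

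In that difference EGR3 was 0.1212 with a pseudocount of 0.1 and 0.003291 with the GC correction, with or without the block, and EGR2 was -0.03297 with a pseudocount of 10. Leaving out a library gave -0.2498 to 0.01674 for EGR1, -0.001985 to 0.3146 for EGR2, -0.2984 to 0.3452 for EGR3, -0.3086 to 0.2242 for FOSB and -0.1502 to 0.03137 for JUN. It gave -0.02185 to 0.1597 for JUN at high MYC, -0.01838 to 0.1866 for JUND at medium MYC and -0.4909 to 0.04182 for FOSB between MYC levels. The causes of these changes were not tested.

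Replicate numbers are shared between groups, but of 24 same-numbered pairs 1 had a correlation of deviations above 0.1 (range -0.13 to 0.21). Of 16 libraries, 3 correlated best with their own number. Such correlations cannot show whether same-numbered libraries came from a shared culture, which the labels do not say. The block ended the call of EGR1 at high MYC (limma adjusted p = 0.06728). Fitted to the compared groups only, the difference in response has no value. Depth limits EGR1, EGR2, EGR3, FOS, FOSB and FOSL2, which had 0 to 27 reads per high MYC library.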
